A study of Mus musculus with 40 samples.

Results

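The caveolae genes are the 5 mouse genes Cav1, Cav2, Cavin1, Cavin2 and Cavin3, followed here through 40 EMT-6 tumors. They were taken by symbol from the 39012 genes of the deposited tables, and each symbol matched 1 gene. The set was chosen because Cav2 had been seen lower with the trap control than with the isotype control in the first library set, so that contrast is described below without a test. EMT-6 is a mouse mammary carcinoma line, here grown in the mammary pad of female Balb/C mice aged 8 to 12 weeks, from an inoculum of 250000 cells.

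Each mouse received 3 intravenous doses, on day 0, day 1 and day 2, and its tumor was collected on day 6. Day 0 was 20 days after inoculation, at a tumor volume of about 400 mm3. Each group held 10 tumors, and every group, the controls included, received an antibody-based protein. The isotype control group received 400 µg of an inactive isotype control for anti-PD-L1. The trap control group received 492 µg of a mutated anti-PD-L1 that still carries a TGFβ trap. The anti-PD-L1 group received 400 µg of anti-PD-L1. The bifunctional group received 492 µg of a fusion of anti-PD-L1 with the TGFβ trap. All tumors came from 1 cell line in 1 mouse strain.

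Caveolae are flask-shaped pits of the plasma membrane. Caveolins insert into the inner leaflet of the membrane as oligomers, and cavins form a coat on top of them; they are abundant in endothelial cells, adipocytes, fibroblasts, smooth muscle and some carcinoma cells. Caveolae buffer membrane tension, take part in uptake of cargo, and hold receptors, among them the TGFβ receptors, in the membrane. RNA from a whole tumor cannot tell fewer cells of a type from less RNA per cell.

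The libraries fell into 2 sets by the numbers in their names, which are kept apart throughout. Set 1, C0449 to C0464, held the 10 isotype control tumors and 6 trap control tumors. Set 2, C0465 to C0488, held 4 trap control, 10 anti-PD-L1 and 10 bifunctional tumors. Totals per library were 13495835 to 25108601 expected counts in set 1 and 21987948 to 27658263 in set 2. The share of 7SL and mitochondrial ribosomal RNA was 29.7% to 62.3% in set 1 and 11.7% to 18.0% in set 2, without overlap. The isotype control and the set 2 groups therefore cannot be told apart from the library set, and no comparison was made between them. Library C0459 had the highest share of those RNAs. C0463 of set 1 stood apart by skeletal muscle genes, in which the 9 genes of that list summed to 6176 CPM (counts scaled to library size). In set 2, C0484 led the bifunctional group in skeletal muscle, adipocyte and macrophage genes. C0479 led the same group in keratinocyte, endothelial, fibroblast and T cell genes. The epithelial list of 5 genes was detected in every group, with a summed 112.8 to 1011 CPM per library.

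Cav2 and Cav1 are neighbours on chromosome 6 in the mm10 build. Cav2 (ENSMUSG00000000058) lies at chr6:17281185-17289115 on the plus strand, and Cav1 (ENSMUSG00000007655) at chr6:17306335-17341452 on the same strand, 17220 bases further on. Cavin1 (ENSMUSG00000004044) lies at chr11:100956733-100970887 on the minus strand, Cavin2 (ENSMUSG00000045954) at chr1:51289126-51302960 on the plus strand, and Cavin3 (ENSMUSG00000037060) at chr7:105480083-105482300 on the minus strand. Gm15581 overlaps both Cav2 and Cav1 on the opposite strand, and it held 0 to 4 expected counts per library. Opposite-strand genes also overlap Cavin2 and Cavin3 and were not analysed here. The strand used in counting was not given in the sources used here, so reads of these antisense genes cannot be told apart from those of the members.

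The promoter windows of Cav2, Cav1 and Cavin2 are shown because Cav2 and Cav1 are neighbours on 1 strand and Cav2 is the gene by which the set was chosen, and because Cavin2 went with Cav1 across the set 2 tumors. The windows, from 250 bases before to 50 after a gene's start, come from RefSeq on GRCm38.p6, in which 4 of the 5 members matched. Capitals mark matches to 4 short motifs, each searched on both strands. SMAD proteins, the intracellular carriers of the TGFβ signal, are known to bind DNA with the letters CAGAC. The factor NF-Y is known to bind CCAAT. The GC box, which Sp1 binds, was searched as GGGCGG. The TATA box was searched as TATAAA. The Cav2 window is chr6:17280935-17281234, the Cav1 window, the first of its 2 annotated starts, is chr6:17306085-17306384, and the Cavin2 window is chr1:51288876-51289175, all read on the plus strand.
Cav2: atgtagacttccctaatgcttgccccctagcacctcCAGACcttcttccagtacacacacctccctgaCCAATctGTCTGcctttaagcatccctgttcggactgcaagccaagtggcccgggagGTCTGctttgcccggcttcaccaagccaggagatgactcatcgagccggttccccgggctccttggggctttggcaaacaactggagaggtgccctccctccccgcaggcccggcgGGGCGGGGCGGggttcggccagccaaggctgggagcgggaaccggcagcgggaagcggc
Cav1: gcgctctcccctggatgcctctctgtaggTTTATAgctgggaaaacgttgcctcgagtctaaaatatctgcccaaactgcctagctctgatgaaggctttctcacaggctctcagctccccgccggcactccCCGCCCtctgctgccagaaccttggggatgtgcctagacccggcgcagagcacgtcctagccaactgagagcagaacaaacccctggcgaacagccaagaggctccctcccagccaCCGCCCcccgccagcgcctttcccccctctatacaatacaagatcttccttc
Cavin2: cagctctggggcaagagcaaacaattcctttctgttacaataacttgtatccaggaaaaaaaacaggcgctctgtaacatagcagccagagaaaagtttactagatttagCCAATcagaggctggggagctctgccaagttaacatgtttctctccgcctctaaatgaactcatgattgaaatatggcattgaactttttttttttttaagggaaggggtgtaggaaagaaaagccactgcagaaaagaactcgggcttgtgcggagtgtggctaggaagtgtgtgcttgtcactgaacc
The Cav2 window held CAGAC 3 times, CCAAT once and GGGCGG in 2 copies that share 1 base. The first Cav1 window held no CAGAC and no CCAAT, 2 GGGCGG and 1 TATAAA, and the Cavin2 window held 1 CCAAT and none of the other motifs. The window of the other Cav1 start held CAGAC 2 times and none of the other motifs. Of 32851 RefSeq promoters of the same length, 49.6% held CAGAC, 37.4% CCAAT, 35.7% GGGCGG and 13.6% TATAAA, so a match is common. GC content was 64.3% in the Cav2 window, 59.3% in the first Cav1 window and 43.3% in the Cavin2 window, against a median of 52.7% over all promoters. These are letter matches and not measured binding sites.

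**Figure D1:**
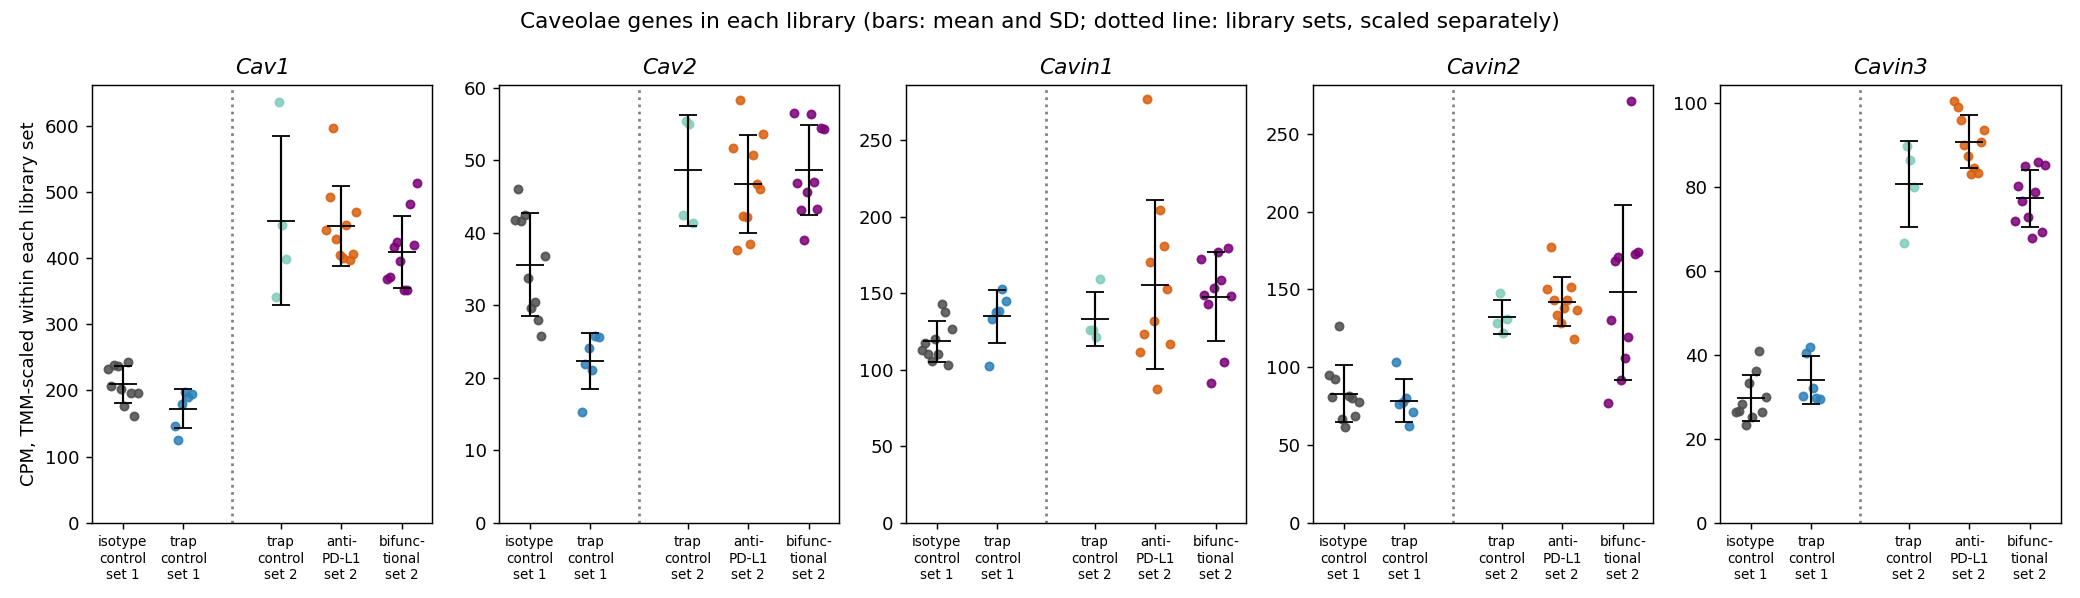
Each panel plots 1 gene, with TMM-scaled CPM on the y axis and the treatment groups on the x axis; each point is 1 library and the bars give mean and SD. The dotted line parts the 2 library sets, which were scaled separately, so heights are compared only on 1 side of it. Cav2 with the trap control in set 1 lies at 15.3 to 25.7 CPM against 25.7 to 46.1 with the isotype control, and Cavin3 with the bifunctional protein at 67.8 to 86.0 against 83.2 to 100.4 with anti-PD-L1.

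Caveolin-2, the product of Cav2, assembles with caveolin-1. In set 1 Cav2 measured 15.3 CPM (C0459), 21.8 (C0460), 24.2 (C0461), 21.1 (C0462), 25.7 (C0463) and 25.5 (C0464) with the trap control. With the isotype control the lowest, median and highest of 10 tumors were 25.7, 35.3 and 46.1 CPM. All 6 trap control tumors lay below the isotype control median and 5 of 6 below every isotype control tumor, so the groups overlapped by C0463 and the lowest isotype control, C0457. Groups that do not overlap were found for 1.08% of the genes tested in set 1 and for none of the 5 members. The difference in Cav2, trap control minus isotype control, was -0.67 log2 (SE 0.14, 95% interval -0.96 to -0.38), a level 37.3% lower. Of all genes tested in set 1, 7.34% passed an adjusted p under 0.05 in the main fit and 2.14% had a lower fold than Cav2. The number of genes passing depended strongly on the processing, as given in the closing section. The genes were chosen by this contrast, so it carries no test here. The Cav2 interval, its rank among all genes and the folds with a library left out take no account of that choice. Without C0459 the Cav2 difference was -0.59 (SE 0.13), and without C0463 it was -0.72 (SE 0.15). On log2(TPM + 1), with TPM as transcripts scaled for length and library, it was -0.42 (SE 0.19). In TPM, Cav2 measured 0.71 to 3.43 with the trap control and 1.87 to 4.67 with the isotype control. Only C0459 lay below every isotype control tumor on that scale, and C0460 lay above the isotype control median of 3.32. The near-separation of the groups was thus seen on CPM and not on TPM.

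The other members had smaller differences in the same contrast. Caveolin-1, made from Cav1, is the main structural protein of caveolae outside striated muscle. Its gene measured 161.7, 204.4 and 243.3 CPM at the lowest, median and highest with the isotype control. With the trap control Cav1 measured 125.4 to 198.2 CPM, with a median of 184.2. All 6 trap control tumors were below the isotype control median, and the groups overlapped. The Cav1 difference was -0.28 log2 (SE 0.11, interval -0.52 to -0.05), and -0.14 on log2(TPM + 1).

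Cavin1, the cavin without which caveolae do not form, measured 102.4 to 153.0 CPM with the trap control and 103.0 to 143.1 with the isotype control. Its difference was 0.19 log2 (SE 0.09, interval 0.00 to 0.38). Cavin2, which helps bend the membrane, measured 62.2 to 103.3 CPM with the trap control and 61.6 to 126.7 with the isotype control, and its difference was -0.08 (SE 0.14). Cavin3, a cavin that links caveolae to signalling proteins, measured 29.5 to 41.8 CPM with the trap control and 23.2 to 40.8 with the isotype control. All 6 trap control tumors were above the isotype control median of Cavin3, and the difference was 0.20 (SE 0.12). Both caveolins thus had differences below 0 and Cavin1 and Cavin3 above 0, with overlapping groups in all 5 members.

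Beside these set 1 values stand markers of cells that carry caveolae. All 12 endothelial genes were above 0 in the same contrast (trap control minus isotype control), with a median of 0.57 log2 against 0.02 over all genes tested, and summed levels of 146.7 to 336.0 CPM against 98.0 to 248.3. All 5 epithelial genes were below 0, with a median of -0.39 and summed levels of 112.8 to 297.0 against 156.8 to 309.7 CPM. Krt8, which made up most of that sum, was at -0.10 (SE 0.16), with means of 189.8 against 203.5 CPM. Cdh1, Epcam and Krt19 were low, with means of 0.946 to 1.51 against 1.25 to 2.76 CPM. Of 10 fibroblast genes 4 were above and 6 below 0, and of 8 mural and smooth muscle genes 4 and 4, from -0.86 for Rgs5 to 4.32 for Des, which skeletal muscle also expresses. Of 9 adipocyte genes 4 were tested, 2 above and 2 below 0, with a median of -0.75 and Adipoq lowest at -1.66. With the endothelial score as a covariate, the Cav2 difference was -0.69 (SE 0.17). With the muscle, keratinocyte and adipocyte scores as covariates it was -0.72 (SE 0.17). With the endothelial score as a covariate, the Cavin1 difference was 0.04 in place of 0.19 and that of Cavin2 0.11 in place of -0.08. The part of the epithelial, fibroblast and mural genes in these differences was not tested.

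Set 2 holds the tests that the choice of genes did not use. Of the 15704 genes tested there, 25.6% passed between the bifunctional and the anti-PD-L1 group by edgeR's quasi-likelihood F test with Benjamini-Hochberg adjustment, 12.4% higher and 13.1% lower. Of the 5 caveolae genes 1 passed, Cavin3, which was lower with the bifunctional protein. A share of 1 in 5 is near that background. The members' median difference was -0.08 log2 against 0.01 over all genes tested. No member's groups were free of overlap, where 0.223% of all genes tested were.

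Cavin3 fell modestly. Its levels with anti-PD-L1 were 83.2, 90.2 and 100.4 CPM at the lowest, median and highest, and with the bifunctional protein 67.8, 77.6 and 86.0 CPM. All 10 bifunctional tumors lay below the anti-PD-L1 median, and 7 of 10 lay below every anti-PD-L1 tumor. The difference was -0.23 log2 (SE 0.06, interval -0.36 to -0.11; edgeR adjusted p = 0.0121), a level 14.8% lower. The group means were 77.3 ± 6.79 CPM against 90.8 ± 6.34 (SD, n = 10 each). C0484 and C0479, the tumors that stand apart by host tissue, were the lowest and the third lowest bifunctional tumors for Cavin3. Without both the difference was -0.17 (SE 0.06), with an edgeR adjusted p of 0.0755. With the muscle, keratinocyte and adipocyte scores as covariates it was -0.18 (edgeR adjusted p = 0.0644), and with the endothelial score as covariate -0.21 (edgeR adjusted p = 0.0499). With 1 fit over all 40 libraries and a term for the set it was -0.20 (edgeR adjusted p = 0.0673).

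The direction of Cavin3 also turned with the scale. On log2(TPM + 1) the difference was 0.06 by limma (adjusted p = 0.629), and on log2(TPM + 0.1) it was 0.06 (adjusted p = 0.636). The median over all genes tested was 0.15 and 0.27 on those scales, against 0.01 on the count scale. Relative to that median Cavin3 was at -0.10 and -0.21, and at -0.25 on the count scale. By these values Cavin3 lay below the median gene on all 3 scales, and was lower in itself only on the count scale. The offset of -0.10 on log2(TPM + 1) was about the size of the SE of the Cavin3 difference there, 0.09. None of these offsets was tested, and the median itself moved with the value added to TPM.

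Beside the fall of Cavin3 stand the marker lists in the same comparison, counted by the same edgeR test, in which 12.4% of all genes tested were higher. All 9 skeletal muscle genes rose, with a median of 4.74 log2 and summed levels of 0.866 to 3943 CPM with the bifunctional protein against 0.839 to 229.3 with anti-PD-L1. DESeq2 called 2 of these 9, and without C0479 and C0484 edgeR called none of them. Of the 9 adipocyte genes 4 rose (summed 32.5 to 1625 CPM against 47.7 to 231.2), and of the 4 keratinocyte genes 2 were tested and both rose (summed 1.64 to 2156 against 2.78 to 13.5). The counts of the next lists are to be read against that share, which those of the endothelial, fibroblast and mural genes are near. By sign, 11 of 12 endothelial genes (median 0.37 log2), all 10 fibroblast genes (0.68) and 5 of 8 mural genes (0.33) were above 0. The median over all genes tested was 0.01. Without C0479 and C0484 the endothelial, fibroblast and mural medians were 0.12, 0.27 and -0.10. Of 12 endothelial genes 2 rose, Vwf by 1.49 and Ramp2 by 0.69 log2 (summed 273.0 to 831.8 against 230.9 to 515.2 CPM). Of 6 macrophage genes 4 rose, C1qb by 0.70 log2 among them (summed 788.9 to 1989 against 612.4 to 1198 CPM), and of 10 fibroblast genes 2 rose, Col1a1 by 0.92 and Pdgfra by 0.75 (summed 9775 to 29180 against 6147 to 18320 CPM). Of 6 T cell genes 5 were tested and 4 rose (summed 3.04 to 11.2 against 0.916 to 3.30 CPM), and of 8 mural and smooth muscle genes 1 rose, Myh11. The epithelial genes split, with Cdh1 1.46 higher and Krt8, a keratin of the glandular epithelium, 0.59 lower on the log2 scale (summed 325.4 to 555.8 against 437.5 to 1011 CPM). DESeq2, which called 4441 of 15704 genes, called 7 adipocyte, 5 macrophage, 5 T cell, 3 endothelial and 3 fibroblast genes. It also called 2 epithelial genes and 1 mural gene, and no keratinocyte gene. Without C0479 and C0484 edgeR called 2 T cell genes, 1 each of the endothelial, fibroblast and macrophage genes, and none of the adipocyte, keratinocyte, mural or epithelial genes. Within groups the skeletal muscle genes had a median Pearson r with Cavin3 of -0.59 over the 24 libraries, and the epithelial genes of 0.12. These were the lowest and the highest of the lists compared. In set 1 the skeletal muscle value was -0.235. It was not particular to Cavin3 in set 2, with -0.459 for Cav1 and -0.498 for Cavin2, against 0.163 for Cav2 and 0.339 for Cavin1. The part of the fibroblast, macrophage and epithelial genes in the Cavin3 difference was not tested.

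The other 4 members did not pass between the bifunctional and the anti-PD-L1 group. Cav1 measured 351.4, 406.1 and 512.8 CPM at the lowest, median and highest with the bifunctional protein and 397.5, 435.8 and 596.6 with anti-PD-L1. The groups overlapped, although 8 of 10 bifunctional tumors were below the anti-PD-L1 median, and the difference was -0.13 log2 (SE 0.10, interval -0.34 to 0.07; edgeR adjusted p = 0.323). Cav2, the gene that was low with the trap control in set 1, measured 39.0, 46.9 and 56.4 CPM with the bifunctional protein and 37.6, 46.3 and 58.2 with anti-PD-L1. Nearly the whole ranges of Cav2 coincided, and the difference was 0.06 log2 (SE 0.09, interval -0.13 to 0.24; edgeR adjusted p = 0.651). On the count scale the interval leaves room for a rise of 1.18-fold and a fall to 0.916 of the anti-PD-L1 level. On log2(TPM + 1) and log2(TPM + 0.1) the Cav2 difference was 0.34 and 0.38 by limma (adjusted p = 0.0798 for both), above that interval and above the shift of the median gene on those scales. Cav1 also turned to 0.18 and 0.19 there (limma adjusted p = 0.240 and 0.241).

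Cavin1 varied most among the anti-PD-L1 tumors, from 87.1 to 276.7 CPM with a median of 142.5 (coefficient of variation 35.6%). With the bifunctional protein it measured 91.0, 151.2 and 179.3 CPM. The Cavin1 difference was -0.08 log2 (SE 0.16, interval -0.41 to 0.26; edgeR adjusted p = 0.750), and it turned to 0.05 (edgeR adjusted p = 0.801) without C0471 and to 0.17 and 0.18 on the TPM scales (limma adjusted p = 0.505 and 0.504). Cavin2 varied most among the bifunctional tumors, from 76.7 to 271.1 CPM with a median of 149.1 (coefficient of variation 38.0%), against 118.4, 140.7 and 177.5 CPM with anti-PD-L1. The Cavin2 difference was 0.06 log2 (SE 0.16, interval -0.26 to 0.38; edgeR adjusted p = 0.801), 0.21 (adjusted p = 0.327) without C0479 and C0484, and -0.07 (adjusted p = 0.691) without C0486, the highest tumor for Cavin2. Cavin3 was the least variable member in these groups, with coefficients of variation of 6.98% with anti-PD-L1 and 8.78% with the bifunctional protein.

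**Figure D2:**
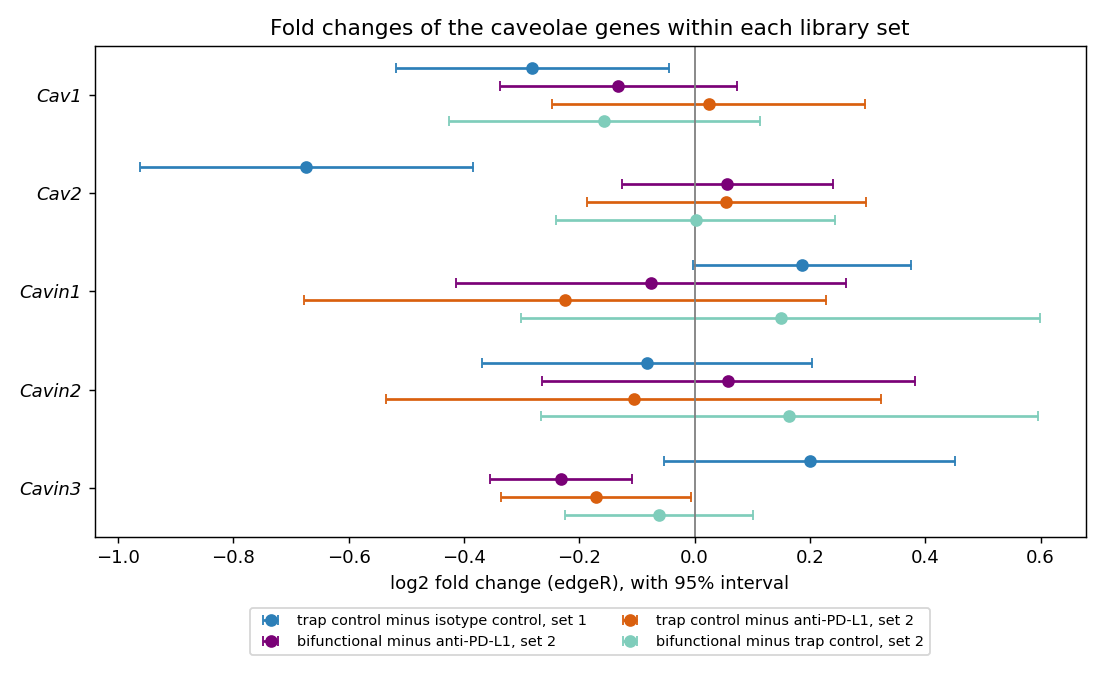
The x axis gives the log2 fold change with its 95% interval and the y axis the 5 genes, with 1 point per comparison. The set 1 contrast, in blue, is the one by which the genes were chosen and is shown as a description; of the 15 intervals of set 2 those of Cavin3 against anti-PD-L1 lie below 0, and the one for the trap control did not pass after adjustment.

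The trap control and anti-PD-L1 groups of set 2 could be compared with 4 tumors against 10, with 0.0127% of genes passing. None of the 5 members passed by edgeR or by DESeq2, and 1 had an unadjusted p under 0.05 where 4.92% of all genes tested had. That gene was Cavin3, at 66.7 (C0465), 89.7 (C0466), 86.3 (C0467) and 80.0 CPM (C0468) with the trap control. All 4 values were below the anti-PD-L1 median, and the Cavin3 difference was -0.17 log2 (SE 0.08, interval -0.34 to -0.01; edgeR adjusted p = 0.979). Cav1 measured 341.4, 636.2, 449.9 and 398.7 CPM in the same order of tumors. The first lay below the anti-PD-L1 range, the second above it and the other 2 within it, and the difference was 0.02 (SE 0.13, edgeR adjusted p = 0.996). Cav2 measured 42.5, 55.5, 54.9 and 41.4 CPM, all within the anti-PD-L1 range, with a difference of 0.06 (SE 0.12, interval -0.19 to 0.30; edgeR adjusted p = 0.985).

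Cavin1 measured 125.8, 126.0, 121.4 and 159.4 CPM in the 4 trap control tumors, a difference of -0.23 log2 (SE 0.22, edgeR adjusted p = 0.979). Cavin2 measured 128.2, 147.6, 122.1 and 130.7 CPM, a difference of -0.11 (SE 0.21, edgeR adjusted p = 0.982). Both genes lay within the anti-PD-L1 range in all 4 tumors. Between the bifunctional and the trap control group of set 2 no member passed by edgeR or DESeq2 and none had an unadjusted p under 0.05, where 0.00637% of all genes tested passed after adjustment and 15.5% before it. The groups of all 5 members overlapped in this comparison and in the one above, where those of 0.777% and 0.331% of all genes tested did not. The members' differences, bifunctional minus trap control, ran from -0.16 log2 for Cav1 (SE 0.13) to 0.16 for Cavin2 (SE 0.21). For Cav2 the difference was 0.00 (SE 0.12, interval -0.24 to 0.24). These 3 comparisons share libraries, each group entering 2 of them.

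Levels can be compared between genes on the TPM scale, which divides by transcript length. Cav1 was the highest and Cav2 the lowest of the 5 in all 40 libraries. Median Cav1 levels were 25.9 TPM with the isotype control and 24.3 with the trap control in set 1, and 78.7, 74.9 and 82.9 with the trap control, anti-PD-L1 and the bifunctional protein in set 2. Median Cav2 levels were 3.32, 2.60, 6.02, 5.84 and 7.96 TPM in the same order. The order between them differed by set, with Cavin1 second in all 16 libraries of set 1 and Cavin3 second in all 24 of set 2. Below them Cavin2 and Cavin3 changed places in 3 of 16 set 1 libraries, and Cavin1 and Cavin2 changed places in 8 of 24 set 2 libraries, so neither of these neighbouring pairs is separated beyond the spread between tumors.

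**Figure D3:**
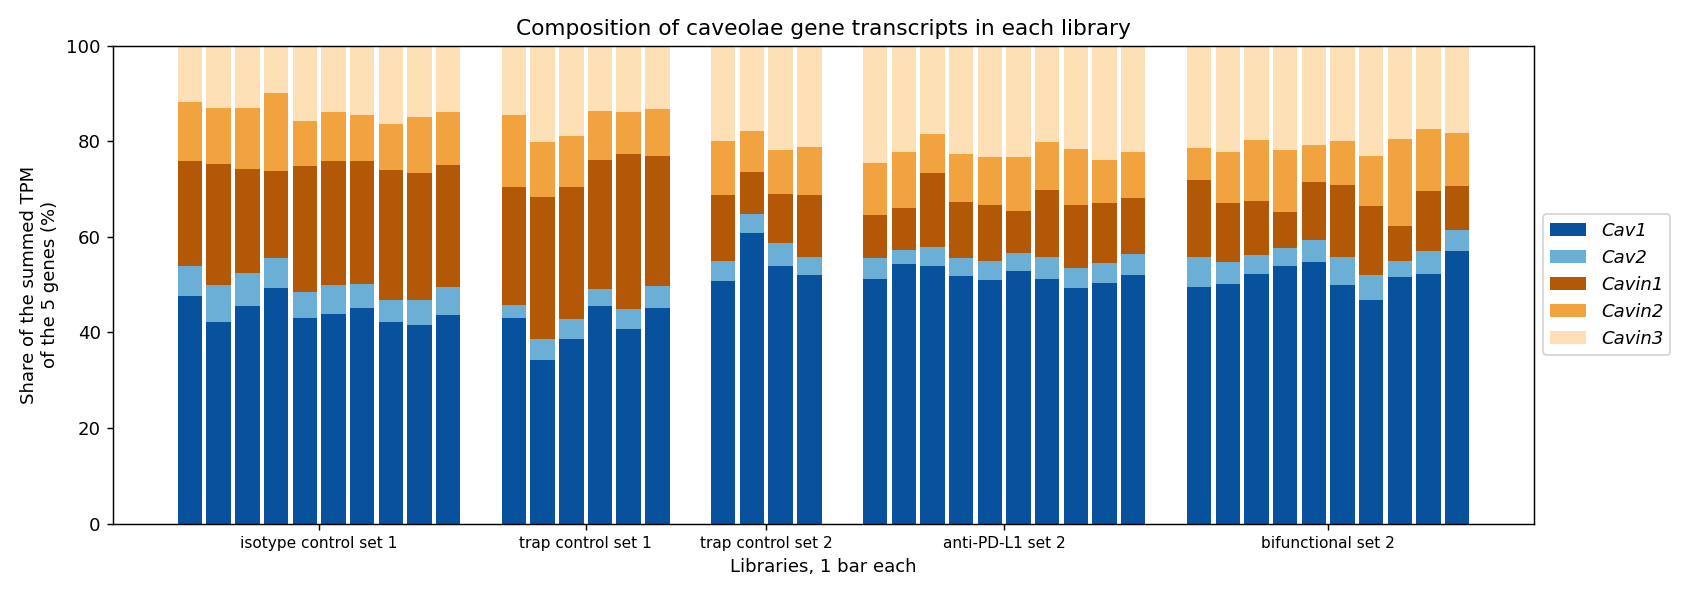
Each bar is 1 library and its segments are the shares, in percent, of the 5 genes in their summed TPM; libraries are grouped by treatment and set on the x axis. The Cavin1 segment takes 18.3% to 32.4% of each bar in set 1 and 7.31% to 16.2% in set 2, and the Cav1 segment is the longest in every bar.

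The trap control is the only treatment present in both sets, with 6 and 4 tumors. Cavin1 made up 24.7% to 32.4% of the members' summed TPM in its set 1 tumors and 8.77% to 13.7% in its set 2 tumors. Cav1 made up 34.3% to 45.5% and 50.7% to 60.8%, and the ratio of Cav1 to Cavin1 TPM was 1.16 to 1.74 in set 1 and 3.71 to 6.94 in set 2. None of these ranges overlapped between the sets. The TPM of Cav1 was 3.32 times, of Cavin3 3.12 times, of Cav2 2.60 times and of Cavin2 2.29 times as high in set 2, all without overlap, while that of Cavin1 was 0.986 times and overlapped. On CPM scaled over all 40 libraries Cavin1 was at 0.555 of its set 1 level, without overlap, and the other 4 genes overlapped. The balance of Cav1 to Cavin1 therefore differed with the library set within 1 treatment, and tumor, library and set cannot be told apart in it. The ratio of Cav1 to Cav2 TPM was 5.54 to 9.28 with the isotype control, 7.92 to 15.1 with the trap control in set 1 and 11.2 to 15.4 with it in set 2.

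Whether the members went up and down together was asked within each set, after taking each group's mean from log2(CPM + 1). Of 20 pairs, 10 in each set, 2 passed after Benjamini-Hochberg adjustment over the 20, both in set 2. Cav1 and Cavin3 had a Pearson r of 0.701 over 24 libraries (permutation test, p = 0.00088, adjusted p = 0.0176) and a Spearman rho of 0.71 (permutation test, adjusted p = 0.0112). Without the 2 libraries farthest from the Cav1 median, C0466 and C0471, r was 0.703, and without C0479 and C0484 it was 0.671. Cav1 and Cavin2 had an r of 0.504 (permutation test, p = 0.00188, adjusted p = 0.0188) and a rho of 0.631 (permutation test, adjusted p = 0.0133). Without the same farthest libraries it was 0.613, and without C0479 and C0484 it was 0.469. Cav1, Cavin2 and Cavin3 each had a negative median r with the skeletal muscle genes in set 2 (-0.459, -0.498 and -0.59). The part of those genes in the relations of Cav1 with Cavin3 and Cavin2 was not tested.

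In set 1, over 16 libraries, the same pairs had an r of -0.151 and 0.286 (permutation test, adjusted p = 0.646 and 0.439), and the difference between the sets was not tested. The neighbours Cav1 and Cav2 had an r of 0.582 in set 1 (permutation test, adjusted p = 0.0916) and 0.348 in set 2 (permutation test, adjusted p = 0.259). Cav1 and Cavin1 had an r of 0.404 in set 1 (permutation test, adjusted p = 0.279) and 0.0486 in set 2 (permutation test, adjusted p = 0.846). Of the pairs with Cav1, those with Cav2 and Cavin1 did not pass in either set.

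**Figure D4:**
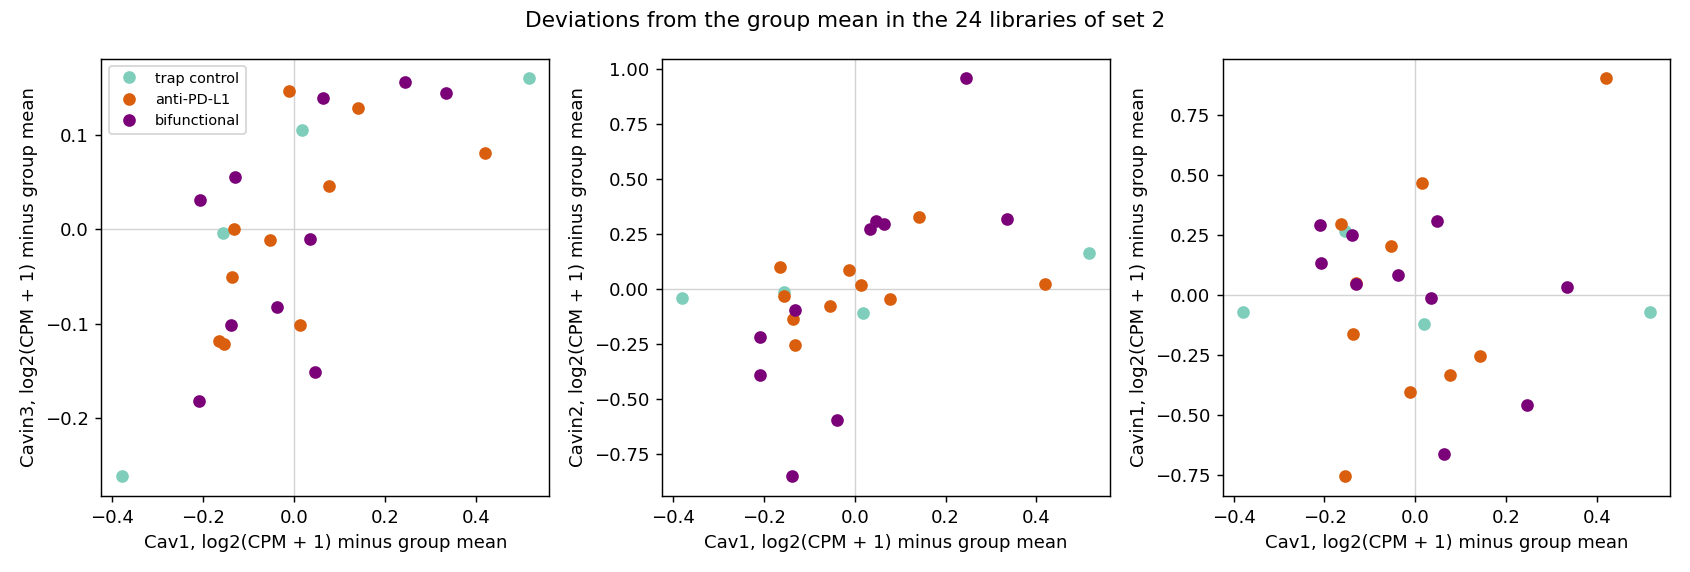
Each point is 1 of the 24 libraries of set 2; the axes give each gene's log2(CPM + 1) minus its group mean, with Cav1 on the x axis of every panel. Points climb together for Cavin3 (r = 0.701) and Cavin2 (r = 0.504) and form no line for Cavin1 (r = 0.0486).

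The genes whose pattern was most like that of Cav1 were sought among 11315 genes with a mean of at least 1 CPM in each set. They were ranked by the smaller of the Pearson r over 16 libraries of set 1 and over 24 of set 2, within groups, keeping protein-coding genes with established names. The first 6 were Vim, which encodes the intermediate filament vimentin (r of 0.669 and 0.595), Anxa2, a membrane-binding annexin (0.593 and 0.589), Suox, sulfite oxidase (0.618 and 0.575), Lamp1, a lysosomal membrane protein (0.55 and 0.567), Smad1, a transducer of BMP signals (0.557 and 0.547), and Oaf (0.578 and 0.542). The caveolae genes themselves were left out of that search. Libraries within a set were scaled together and differ in depth, and these values are a description.

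The list of proteins that shape or stabilise caveolae held Cav3, Cavin4, Ehd1, Ehd2, Ehd4, Pacsin2, Pacsin3 and Dnm2. Cav3, the muscle caveolin, was too low to be tested, with group medians of 0 to 0.0819 CPM. Of the other 7 none passed in any set 2 comparison by edgeR. Between the bifunctional and the anti-PD-L1 group 1 had an unadjusted p under 0.05, where 40.7% of all genes tested had, and DESeq2 called 1, where it called 4441 of 15704. Both were Ehd4, an ATPase related to Ehd2, at 82.3 ± 34.0 CPM against 60.4 ± 9.40 (SD, n = 10 each), a difference of 0.45 log2 (SE 0.17, edgeR adjusted p = 0.0598; DESeq2 adjusted p = 0.0343). Without C0479 and C0484 the Ehd4 difference was 0.18 (edgeR adjusted p = 0.382). In the other comparisons both counts were 0. Ehd2, the ATPase at the neck of caveolae, measured 126.2 ± 24.6 CPM with the bifunctional protein, a difference of 0.17 log2 from anti-PD-L1 (SE 0.13, edgeR adjusted p = 0.331). Pacsin2, an F-BAR protein of the caveolar membrane, measured 96.6 ± 6.24 CPM (SD, n = 10) with a difference of -0.11 (SE 0.05, edgeR adjusted p = 0.128). In the set 1 contrast all 7 were above 0, with a median of 0.25 log2, among them Ehd2 at 0.22 (SE 0.10) and Dnm2, the dynamin that cuts vesicles free, at 0.25 (SE 0.08).

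The list of proteins held in or near caveolae had 8 genes, all tested. Insr, the insulin receptor, was the only one to pass in set 2, between the bifunctional and the anti-PD-L1 group. This 1 of 8 is near the 12.4% of all genes that were higher there. Insr measured 54.1 ± 17.1 CPM with the bifunctional protein and 39.9 ± 7.49 with anti-PD-L1 (SD, n = 10 each), a difference of 0.44 log2 (SE 0.15, edgeR adjusted p = 0.0316). It no longer passed without C0484 (0.36, edgeR adjusted p = 0.0678), without C0479 (0.37, 0.0750), without C0469 (0.41, 0.0537), without C0474 (0.41, 0.0564) or without C0485 (0.43, 0.0503). Without both C0479 and C0484 it was 0.26 (edgeR adjusted p = 0.179), with the endothelial score as covariate 0.19 (0.207) and with the host tissue scores 0.20 (0.276). The TGFβ receptors did not pass, Tgfbr1 at 0.15 (SE 0.13, edgeR adjusted p = 0.379) and Tgfbr2 at -0.00 (SE 0.10, edgeR adjusted p = 0.981). In the set 1 contrast, where no test is given, 7 of the 8 genes were above 0, with a median of 0.20 log2, among them Nos3, the endothelial nitric oxide synthase, at 0.54 (SE 0.18) and Insr at 0.32 (SE 0.08). There Tgfbr1, the 1 gene below 0, was at -0.47 (SE 0.16), and Tgfbr2 was at 0.01 (SE 0.12). Plvap, which forms the diaphragm of endothelial caveolae, was at 0.72 (SE 0.23) there, beside the higher endothelial genes.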

How the data were processed

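RNA-seq was done on 40 tumors, with 1 library per tumor. The labels give ribosomal depletion and random priming, and RSEM 1.2.31, Bowtie2 2.3.1 and mm10 appear in the submitters' processing notes without role or order. The annotation release, strand and filters are not given in the sources used here. The authors deposited RSEM expected counts and TPM for 39012 Ensembl genes. Of the expected counts 14.0% were not whole and were rounded. Symbols came from GENCODE M21 and covered 96.4% of the IDs.

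Within each set, edgeR 4.0.16 (R 4.3.3) was run with TMM scaling and its default filter on low counts, as a two-sided quasi-likelihood F test with Benjamini-Hochberg adjustment over all genes and a threshold of 0.05. CPM are TMM-scaled within a set. Intervals are 95%. The alternatives were DESeq2 1.42.0 scaling and Wald test, other filters, log2(TPM + 1) and log2(TPM + 0.1) in limma 3.58.1, covariates, all 40 libraries in 1 fit, and libraries left out. A list score, used as a covariate, summarises the list's genes in 1 library. Correlations used 100000 permutations in scipy 1.17.1. No 2 libraries of a group were duplicates (smallest chi-square per degree of freedom 8.91). Precision follows the depth of each library. The labels give 1 tumor per library and do not number the mice. The fitting was tested on simulated data.

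The members and lists were chosen with earlier results of these data known. The rule named all 5 members, accessory and partner genes that passed in set 2, up to 2 genes per marker list by smallest adjusted p, and the 6 genes most like Cav1, limited afterwards to protein-coding genes with established names. Ehd2, Ehd4, Pacsin2, Dnm2, Tgfbr1, Tgfbr2, Nos3, Plvap, Rgs5, Des, Adipoq, Epcam and Krt19 fall outside it and were named after their values were seen.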

Additional observations from a re-analysis of the deposited data

Results flagged for a closer look

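Of 25 sets of values (5 genes in 5 groups of 4 to 10 libraries) 4 held a library whose gap to its nearest neighbour was large for the group's range by Dixon's 95% criterion, and chance flags about 1 in 20. Cav1 measured 596.6 CPM in the anti-PD-L1 tumor C0471, where the other 9 measured 397.5 to 491.6. Cavin1 measured 159.4 CPM in the trap control tumor C0468 of set 2, where the other 3 measured 121.4 to 126.0. Cavin2 measured 126.7 CPM in the isotype control tumor C0452, where the other 9 measured 61.6 to 94.8. Cavin2 measured 271.1 CPM in the bifunctional tumor C0486, where the other 9 measured 76.7 to 173.8.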

How the results depend on the processing

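In set 1 Cav2, Cav1, Cavin1 and Cavin3 kept their direction in every alternative, and Cavin2 did not. The largest moves of Cav2, Cav1, Cavin1 and Cavin2 were beyond the SE of their differences in the main fit (0.14, 0.11, 0.09 and 0.14). Those of Cavin3 stayed within its SE of 0.12. Cav2 ran from -0.72 to -0.42 log2, and from -0.73 to -0.59 when 1 library was left out; Cav1 from -0.33 to -0.21, Cavin1 from 0.15 to 0.25, Cavin2 from -0.17 to 0.00 and Cavin3 from 0.12 to 0.25 when 1 was left out. Under the other alternatives Cav1 ran from -0.35 to -0.14 (lowest in size on the TPM scales), Cavin1 from 0.04 to 0.19, Cavin2 from -0.10 to 0.11 and Cavin3 from 0.14 to 0.26; with the endothelial covariate Cavin1 was at 0.04 and Cavin2 turned to 0.11. In set 2 the number of members called between the bifunctional and the anti-PD-L1 group was 1, Cavin3, and stayed 1 in all 24 fits without 1 library (lowest 1, highest 1; Cavin3 edgeR adjusted p 0.00779 to 0.0341). It was 0 with all 40 libraries in 1 fit, with log2(TPM + 1), with log2(TPM + 0.1), without C0479 and C0484, and with the muscle, keratinocyte and adipocyte covariates; Cavin3 itself turned to 0.0578 on log2(TPM + 1) and 0.0593 on log2(TPM + 0.1), and the cause was not tested. In the other set 2 comparisons 0 members were called in every alternative run. The calls over all genes in the set 1 contrast, 1041, were 1713 by the DESeq2 Wald test and 400 without a filter. They were 2 on both TPM scales, 11 with the endothelial covariate and 0 with the muscle, keratinocyte and adipocyte covariates. The calls over all genes between the bifunctional and the anti-PD-L1 group, 4014, were 760 without C0479 and C0484, 777 with the host tissue covariates, 915 with the endothelial covariate and 2141 to 5242 without 1 library, lowest without C0479 or C0484 (2141 and 2172). On log2(TPM + 1) 3043 of the 3086 calls were higher and on log2(TPM + 0.1) 3112 of 3158, against 1951 of 4014. For the trap control against anti-PD-L1 the calls, 2, were 1 with all 40 libraries, 3 by DESeq2, 0 without a filter, with only the groups compared, on both TPM scales, without C0479 and C0484 and with either set of covariates, and 0 to 2 without 1 library. For the bifunctional protein against the trap control the calls, 1, were 214 by DESeq2, 9 with the host tissue covariates, 2 with the endothelial covariate, 0 without a filter, with only the groups compared, with all 40 libraries, on both TPM scales and without C0479 and C0484, and 0 to 176 without 1 library, highest without C0482. With 4 trap control tumors in set 2, the intervals against anti-PD-L1 ran from -0.68 to 0.23 log2 for Cavin1 and from -0.54 to 0.32 for Cavin2. The data leave room for differences within these intervals, which are not limits of detection. No paired analysis was possible because the libraries carry no replicate numbers shared between groups.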
